A study of Desmophyllum pertusum with 36 samples.

Results

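The change in gene expression between week 4.5 and week 2 at pH 7.6 was examined in polyps of Lophelia pertusa, a reef-building coral of cold water that the labels list as Desmophyllum pertusum. The comparison holds 3 libraries of week 4.5 and 3 of week 2, 1 from each of colonies 1, 3 and 4, out of 18 libraries in all. Libraries were chosen by their labelled pH and sampling time and were paired by colony, and 50375 of 75743 transcripts had 10 or more counts in 3 or more of the 6 libraries and were tested. Each colony is genetically distinct from the others, and fragments of each stood at pH 7.6, the lower level, or at pH 7.9. All fragments lived in the same experimental system under the same sampling plan of weeks 2, 4.5 and 8.5. The labels number the times 1 to 3, and these were matched to the weeks in the order of the design text. The labels do not say whether the fragments stood in separate tanks or how many polyps went into a library, so the p-values measure only the spread between these libraries. At pH 7.6 alone, time in the system and time at the lower pH cannot be told apart, and the same comparison at pH 7.9 is therefore given beside it.

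Lophelia pertusa builds deep reefs of aragonite without photosynthetic symbionts. Stony corals deposit skeleton from a fluid beneath the calicoblastic cell layer, whose pH they raise with ion pumps, while carbonic anhydrases and bicarbonate transporters supply inorganic carbon. Lower seawater pH reduces carbonate ions and is known to make this work more costly, and gene expression over weeks is one way to follow how a coral adjusts. The transcripts measured here carry numbers, and the deposited file gives no gene names for them. No transcript can therefore be assigned to these processes, the polyp label could not be checked against marker genes, and at most 2 transcripts in each direction are named in a comparison.

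Library totals ran from 20986345 to 25651213 counts at week 4.5 and from 18448215 to 23845334 at week 2. At pH 7.6 the libraries followed their colony labels. Across transcripts, Spearman's correlation between weeks was 0.94 to 0.959 within colony 1 and 0.94 to 0.946 within colony 4. Colony 3 was less even, at 0.879 to 0.899. Its week 2 library had the lowest scaling factor by the trimmed mean of M values (TMM) at 0.814, where the 9 libraries at pH 7.6 reached up to 1.17. The libraries at pH 7.9 did not all follow their labels. The week 4.5, pH 7.9 library labelled colony 3 correlated at 0.963 with the week 2 library labelled colony 1 and at 0.874 with that of its own label. That of colony 4 correlated at 0.952 with the week 2 library of its own label and equally with that labelled colony 3. In all, 5 libraries at pH 7.9 lay apart from the other libraries of their colony label, namely the 3 labelled colony 3 and those of weeks 4.5 and 8.5 labelled colony 1. Without them pH 7.9 holds 2 libraries of week 2 and 1 of week 4.5, and values so obtained are given beside the counts and tests that use pH 7.9.

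Between week 4.5 and week 2 at pH 7.6, 4 transcripts rose and 12 fell by the test over the 3 colonies. The quasi-likelihood test of edgeR, with colony as a block, called 16 of 50375 transcripts at an adjusted p below 0.05, which is 0.0318%. The rises were 0.00794% of those tested and the falls 0.0238%. Without adjustment, p was below 0.05 for 5157 transcripts (10.2%), with 2773 higher and 2384 lower at week 4.5. The fit behind the 16 calls took its spread from all 9 libraries at pH 7.6, including those of the last sampling time. With the 6 libraries of weeks 2 and 4.5 alone, the same test called 0 transcripts. Without the colony block, in the 9 libraries, it called 1. Both the count and its members also depended on single colonies. The count was 866 without colony 3 (all of the 16 among them), 5 without colony 1 (3 of the 16) and 14 without colony 4 (7 of the 16; 1 higher and 13 lower). DESeq2 called 620 (1.23%), among them 15 of the 16, and there rises outnumbered falls, at 345 higher and 275 lower. Because whole polyps were sequenced, fewer cells of a type and less RNA per cell cannot be told apart in any of these changes.

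**Figure D1:**
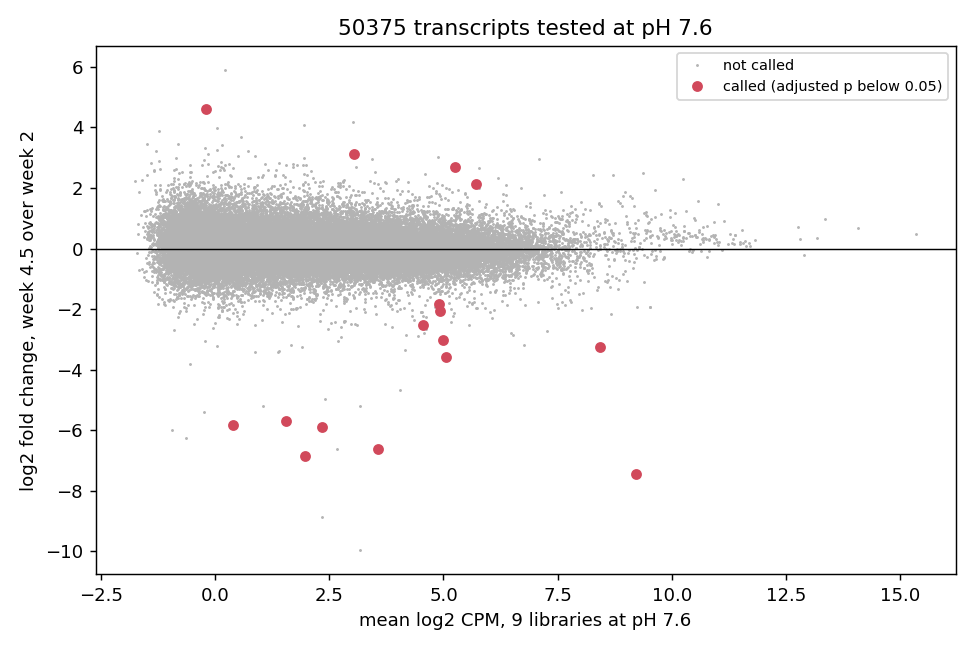
Log2 fold change of week 4.5 over week 2 at pH 7.6 (vertical axis) against the mean log2 CPM (counts per library, scaled for depth and make-up) over the 9 libraries at pH 7.6 (horizontal). Each point is 1 of the 50375 transcripts tested. The 16 called transcripts are red: 4 lie above 0 and 12 below it, and the deepest falls reach below -6.

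The largest fall among the 16 was that of Transcript_77070. It stood at 13.2, 8.31 and 7.09 CPM in colonies 1, 3 and 4 at week 4.5, against 1505, 1126 and 2594 CPM at week 2. The groups do not overlap, and every library of week 2 was far above every one of week 4.5. The mean was 9.55 ± 3.26 CPM at week 4.5 and 1742 ± 762 CPM at week 2 (SD, n = 3 each). The log2 fold change was -7.46 ± 0.47 (SE, edgeR adjusted p = 0.000314). The transcript stayed low afterwards, at 5.95, 4.92 and 6.18 CPM in colonies 1, 3 and 4 at week 8.5. It was called without colony 1, 3 or 4 as well, with adjusted p-values of 0.00143, 0.0019 and 0.00051 in edgeR. The call was lost with the 6 libraries of weeks 2 and 4.5 alone (edgeR adjusted p = 0.0776).

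Transcript_81781 fell to almost no counts. It had 2, 2 and 0 counts in colonies 1, 3 and 4 at week 4.5, against 57, 557 and 20 counts at week 2. Every week 2 library lay above every week 4.5 library, with colony 3 far above the others at week 2. The transcript passed the filter only through week 2, so the filter fixed this lack of overlap. Summed over colonies and scaled for library size, the ratio of week 4.5 to week 2 was 0.00575 (95% exact binomial interval 0.00156 to 0.0148, counting error only). The fitted log2 fold change was -6.86 ± 0.92 (SE, edgeR adjusted p = 0.0383). At counts this low the fitted value depends on the prior count. At week 8.5 the transcript had 5, 34 and 13 counts, more than at week 4.5 in each colony. Its call was lost without colony 1 (edgeR adjusted p = 0.0718) and without the week 2 library of colony 3 alone (0.0501), where the fitted log2 fold change was -5.49. Without colony 3 altogether it was -5.21 (adjusted p = 0.0385).

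Transcript_38717 rose for a time. It stood at 34.0, 14.4 and 7.33 CPM in colonies 1, 3 and 4 at week 4.5, against 2.01, 1.29 and 2.02 CPM at week 2. The 2 weeks do not overlap, although the colonies at week 4.5 spread over a wider range than at week 2. The mean was 18.6 ± 13.8 CPM at week 4.5 and 1.77 ± 0.42 CPM at week 2 (SD, n = 3 each). The fitted log2 rise was 3.12 ± 0.42 (SE, edgeR adjusted p = 0.0484). At week 8.5 it was at 6.51, 2.56 and 2.25 CPM, below week 4.5 and above week 2 in each colony. Without colony 1, where it was highest, the log2 fold change was 2.66 and the call was lost (edgeR adjusted p = 0.446). It was also lost without the week 2 library of colony 3 (0.0675).

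Transcript_1490 showed the more even of the 2 named rises. It was at 63.3, 109.7 and 69.3 CPM in colonies 1, 3 and 4 at week 4.5, against 7.70, 19.0 and 12.4 CPM at week 2. All 3 colonies rose by a similar factor, with log2 changes of 3.02, 2.54 and 2.48 in colonies 1, 3 and 4. The fitted log2 fold change was 2.68 ± 0.29 (SE, edgeR adjusted p = 0.0175). At week 8.5 the levels were 15.5, 20.3 and 21.6 CPM, again between the levels of the other 2 weeks. The call was lost without colony 1 (edgeR adjusted p = 0.231) and without colony 4 (0.0814).

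**Figure D2:**
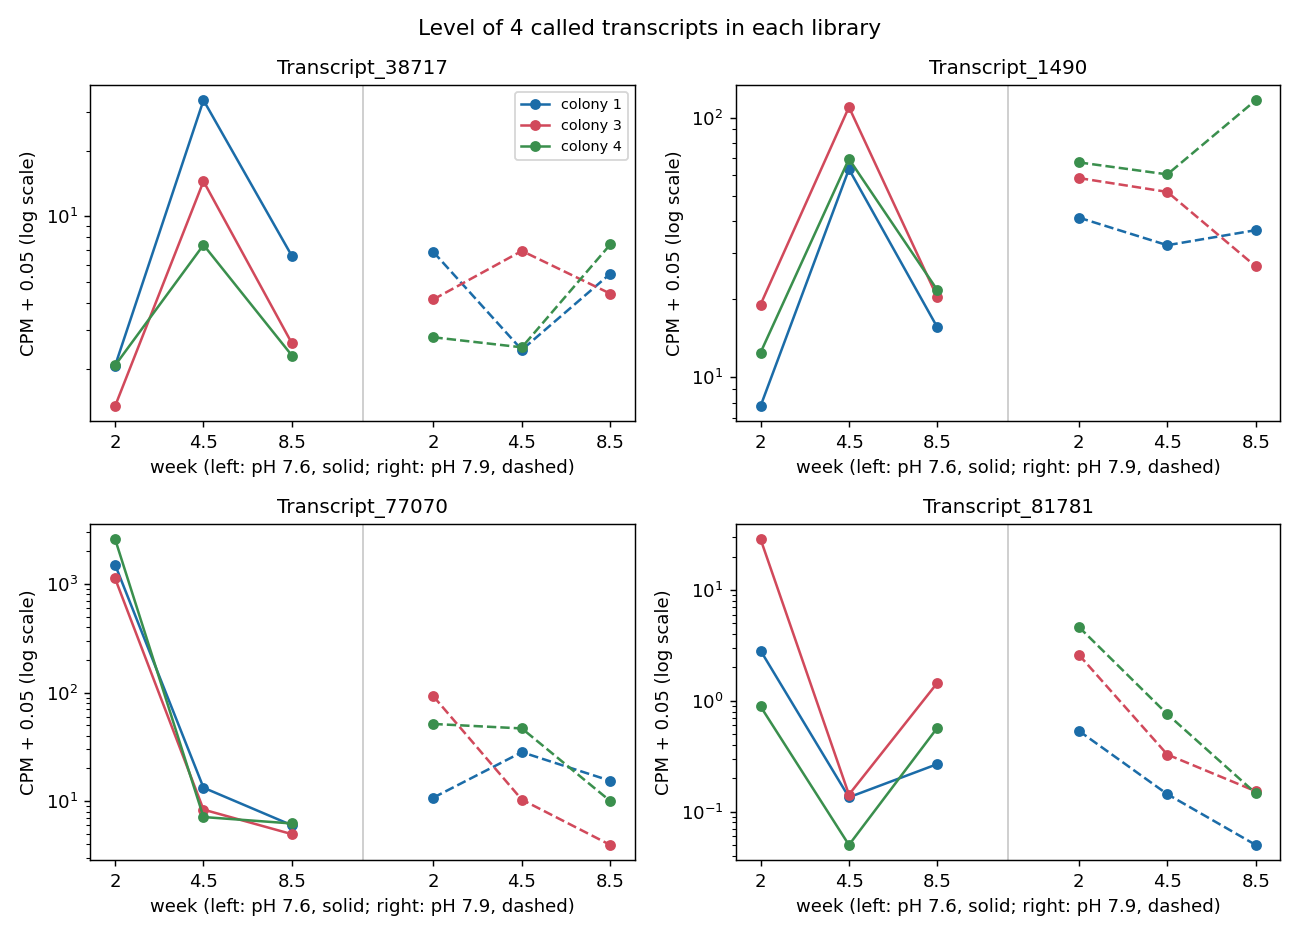
Level of the 4 named transcripts in each of the 18 libraries, as CPM plus 0.05 on a log axis, against week. Solid lines on the left of each panel are pH 7.6 and dashed lines on the right are pH 7.9, and each colour is a colony label. At pH 7.6 the upper 2 transcripts peak at week 4.5 in each colony, and Transcript_77070 reaches 1126 CPM or more only at week 2.

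The 16 called transcripts fell into a few patterns over time. All 4 that rose were below their week 4.5 level at week 8.5 in the 3 colonies, and 3 of them lay between their week 2 and week 4.5 levels in every colony. None of the 4 was below week 2 at week 8.5 in all colonies. All 12 that fell were still below their week 2 level at week 8.5 in the 3 colonies. For 8 of the 12, the highest week 8.5 library lay under the lowest week 2 library. This held for 4.96% of all transcripts, and for 22.9% of the 2588 transcripts whose week 4.5 libraries all lay below those of week 2. The weeks share their baseline libraries, so these are levels side by side and not a further test.

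The sizes of the called changes differed widely. The 4 rises ran from 2.14 to 4.62 on the log2 scale, with a median of 2.90, and the 12 falls from -7.46 to -1.83, with a median of -4.64. The rise of 4.62 had 1, 2 and 2 counts in colonies 1, 3 and 4 at week 2, so its size depends on the prior count. Its log2 CPM changes with a prior count of 2 were 3.92, 3.24 and 3.86. The median over all transcripts tested was -0.00. All 16 had 1 direction in every colony, which 34.7% of all tested transcripts did, and their groups did not overlap. Some of the 16, Transcript_81781 among them, had counts under the filter's minimum in every library of their lower week. Such transcripts passed the filter only through the other week, so the filter fixed their direction and lack of overlap. Over all transcripts, 3008 (5.97%) lay higher at week 4.5 without overlap and 2588 (5.14%) lay lower. A small spread between colonies is part of what makes a call, so these counts describe the calls and do not support them. Colony 3 had the largest change in 6 of the 12 falls and in 0 of the 4 rises. Transcript_81781 shared its profile over the libraries with others of these 6. Its week 2 counts were 57, 557 and 20 in colonies 1, 3 and 4, beside 65, 732 and 30, or 190, 1679 and 56. Whether such members belong to separate genes was not tested, so counts out of the 12 may hold the same gene more than once. At week 2, the median level of the 12 falling transcripts was 34.6, 56.8 and 51.8 CPM in colonies 1, 3 and 4. At week 4.5 it was 5.29, 6.12 and 5.10 CPM in the same colonies. Of the 12, 2 had 3 or fewer counts in every week 4.5 library.

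**Figure D3:**
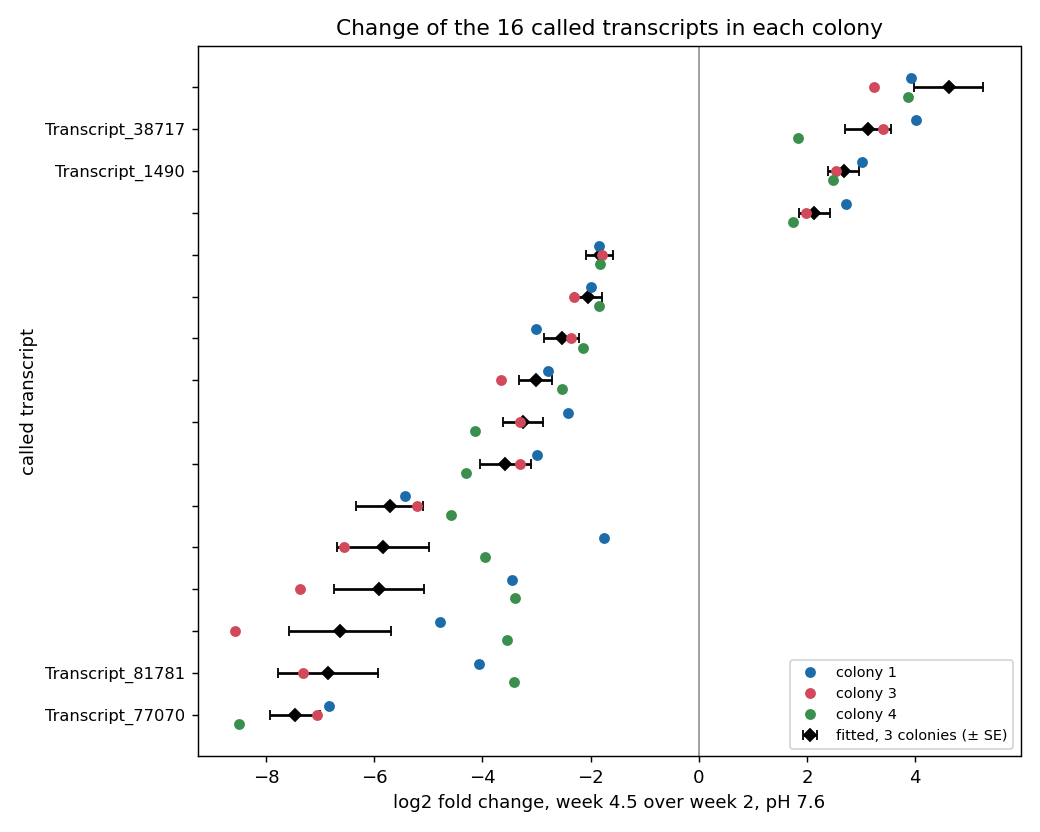
Log2 fold change of week 4.5 over week 2 at pH 7.6 for the 16 called transcripts, 1 per row, ordered by the fitted change. Coloured points are the change in each colony (log2 CPM, prior count 2) and black diamonds with bars are the value fitted over 3 colonies ± SE. All 3 colonies lie on the same side of 0 in every row, and colony 3 lies farthest from 0 in 6 of the 12 falls.

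At pH 7.9 the same weeks gave 1 call among 49395 transcripts tested (0.00202%), a fall, with 4428 at an unadjusted p below 0.05 in edgeR. DESeq2 called 501 there (281 higher and 220 lower), or 40 without the 5 libraries that lay apart, and limma-voom called 0. The call was Transcript_78213, which had 1, 0 and 1 counts in the libraries labelled colonies 1, 3 and 4 at week 4.5, against 1830, 137 and 2097 counts at week 2. Every library of week 2 held it and those of week 4.5 held 1 count at most. The transcript could pass the filter at pH 7.9 only through week 2, so the filter fixed this separation. Its edgeR adjusted p was 0.00528, or 1 without the 5 libraries that lay apart, where the change at pH 7.9 rests on colony 4 and 0 transcripts were called (1745 at an unadjusted p below 0.05). It was also lost without colony label 1 (edgeR adjusted p = 0.26) and without colony 4 (adjusted p = 1).

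The same transcript did not pass the test at pH 7.6, where its counts took a similar course. Transcript_78213 had 1, 0 and 0 counts in colonies 1, 3 and 4 at week 4.5, against 25, 487 and 1249 counts at week 2 (edgeR adjusted p = 0.079). The groups do not overlap, and colonies 1 and 4 differ widely at week 2. Here too the transcript passed the filter only through week 2, so the filter fixed the lack of overlap. The ratio of summed, scaled counts of week 4.5 to week 2 was 0.000517 (95% exact binomial interval 1.31e-05 to 0.00289, counting error only). Libraries at pH 7.6 and pH 7.9 thus both lacked nearly all counts of it at week 4.5.

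The 16 transcripts called at pH 7.6 were next read at pH 7.9, whose libraries the pH 7.6 fit did not use. The 12 that fell had a median log2 fold change of -1.36 at pH 7.9, against -4.64 at pH 7.6. Of the 12, 11 had the same direction in the pH 7.9 fit and 0 were called. An unadjusted edgeR p below 0.05 was found there for 9, against 4428 of all 49395 transcripts tested. That fit pairs libraries by colony label, and 5 of its 9 libraries lay apart from the others of their label. Without those 5, week 4.5 holds 1 library, so only the changes in colony 4 are given beside it. In colony 4 alone, which holds none of those 5 libraries, 10 of the 12 had the same direction, with a median of -1.91. Over all transcripts, 57.3% had the same direction in the 2 fits, and 58.4% in the pH 7.6 fit and colony 4 at pH 7.9. The 4 that rose had a median of -0.08 at pH 7.9, against 2.90 at pH 7.6. In the pH 7.9 fit 2 of the 4 had the same direction and 0 had an unadjusted p below 0.05. In colony 4 alone 0 of the 4 had the same direction, but their changes there were small, with a median of -0.15.

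The levels of the 2 pH at each week can be set side by side for these transcripts. For 3 of the 4 rising transcripts, every week 4.5 library at pH 7.6 was above every week 4.5 library at pH 7.9, which held for 4.81% of all transcripts. For 3 of the 4, every week 2 library at pH 7.6 was below every week 2 library at pH 7.9 (3.77% of all). For 5 of the 12 falling transcripts, every week 2 library at pH 7.6 was above every one at pH 7.9, against 3.21% of all transcripts. For 4 of the 12, every week 4.5 library at pH 7.6 was below every one at pH 7.9 (3.82% of all). With the 5 libraries that lay apart left out, the week 2 counts were 3 of the 4 rising and 5 of the 12 falling transcripts, against 5.42% and 4.96% of all. The week 4.5 counts then rest on 1 library at pH 7.9 and were 4 of 4 and 8 of 12, against 26.0% and 26.8% of all. The members were called from the pH 7.6 libraries that enter these counts, so the counts are descriptions. Transcript_77070 was among the 5. It stood at 1126 to 2594 CPM at pH 7.6 and at 10.7 to 92.2 CPM at pH 7.9 at week 2, and at 7.09 to 13.2 CPM at pH 7.6 and 10.3 to 46.7 CPM at pH 7.9 at week 4.5.

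Whether the week change itself differed between the pH levels was tested with an interaction term over all 18 libraries. edgeR called 0 of 54657 transcripts (0%), with 3398 at an unadjusted p below 0.05 and a lowest adjusted p of 0.121, where DESeq2 called 93 (19 higher and 74 lower). A change particular to pH 7.6 was therefore not shown by edgeR for any transcript. Without the 5 libraries the contrast rests on 1 pH 7.9 library of week 4.5, assumed to vary like the others. In that fit edgeR called 0 (1610 at an unadjusted p below 0.05) and DESeq2 called 31, and so small a design says little about stability. Of the 4 rising transcripts all had an unadjusted p below 0.05 for the difference, and of the 12 falling ones 8 had, against 6.22% of all transcripts, and the numbers were the same without the 5 libraries (2.95% of all). The 16 were called for their change at pH 7.6, which is part of this difference, so nothing is read from these numbers. Their adjusted p-values in edgeR were 0.15 to 0.583 for the rises and 0.15 to 0.993 for the falls.

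The transcripts named for the difference did not pass the edgeR test, although all 4 did in DESeq2. The DESeq2 adjusted p was 4.44e-05 for Transcript_1490, 0.000117 for Transcript_4932, 2.76e-06 for Transcript_33214 and 6.46e-05 for Transcript_7610. In the same order it was 0.0198, 0.108, 0.444 and 1 without the 5 libraries. Transcript_1490 had a log2 change of 2.68 at pH 7.6 and of -0.22 at pH 7.9, a difference of 2.89 ± 0.46 (SE, edgeR adjusted p = 0.15). At pH 7.9 it stood at 32.2, 51.7 and 60.4 CPM in the libraries labelled colonies 1, 3 and 4 at week 4.5, against 41.2, 58.5 and 67.2 CPM at week 2. At week 2 it was thus lower in every pH 7.6 library than in any pH 7.9 library, and at week 4.5 higher. Without the 5 libraries the difference was 2.81 (edgeR adjusted p = 1).

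Transcript_4932 had a log2 change of 2.10 at pH 7.6 and of -1.03 at pH 7.9, a difference of 3.13 ± 0.53 (SE, edgeR adjusted p = 0.186). Its levels at pH 7.6 were 59.0, 24.6 and 59.6 CPM in colonies 1, 3 and 4 at week 4.5, against 32.1, 4.82 and 5.84 CPM at week 2. Those at pH 7.9 were 14.2, 23.0 and 29.0 CPM at week 4.5, against 27.5, 45.8 and 66.2 CPM at week 2. All 3 colonies moved the same way at pH 7.6, and the 3 pairs by colony label at pH 7.9 moved the opposite way. Of the pairs at pH 7.9, only that of colony 4 holds none of the 5 libraries that lay apart. At pH 7.6 the 2 weeks overlap because colony 1 was already high at week 2. Without the 5 libraries the difference was 3.26 (edgeR adjusted p = 1).

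Transcript_33214 had a log2 change of -1.41 at pH 7.6 and of 1.51 at pH 7.9, a difference of -2.93 ± 0.44 (SE, edgeR adjusted p = 0.149). Its levels at pH 7.6 were 23.9, 35.9 and 4.94 CPM in colonies 1, 3 and 4 at week 4.5, against 79.7, 80.4 and 12.5 CPM at week 2. Colony 4 was lowest at both weeks, and the weeks overlap between colonies though each colony was lower at week 4.5. Without the 5 libraries the difference was -1.99 (edgeR adjusted p = 1).

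Transcript_7610 differed mainly through pH 7.9, with a log2 change of 0.57 at pH 7.6 and of 4.89 at pH 7.9. At pH 7.6 it was at 1.95, 38.9 and 1.09 CPM in colonies 1, 3 and 4 at week 4.5, against 2.21, 30.6 and 0.21 CPM at week 2, so colony 3 was far above the others at both weeks. At pH 7.9 the highest level, 112 CPM, was in the week 4.5 library labelled colony 1, 1 of the 5 that lay apart. The difference of -4.48 ± 0.69 (SE, edgeR adjusted p = 0.149) was -2.67 without the 5 libraries (adjusted p = 1).

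The 3 colonies differed in how much changed between the weeks at pH 7.6. In colony 1, 2896 transcripts were more than 2-fold higher and 2765 more than 2-fold lower at week 4.5, together 11.2% of those tested. In colony 3 the numbers were 9228 and 6593 (31.4%), and in colony 4 they were 4791 and 3593 (16.6%). Each colony has 1 library per week, so these counts have no test. Colony 3 thus had the most transcripts past 2-fold, and the excess of higher over lower was also largest there. Its change depended on level, with a median log2 change of 0.27 below a mean log2 CPM of 1, -0.15 from 4 to 7 and -0.66 at 10 and above. Below 1, 9341 of 15854 transcripts were higher. Its week 2 library also had the fewest transcripts with counts of the 6 libraries, 64623. Whether this accounts for the excess was not tested. In all 3 colonies together, 443 transcripts were more than 2-fold higher and 215 more than 2-fold lower.

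The likeness of the changes depended on the pair of colonies. Across the 50375 transcripts, the log2 changes of colonies 1 and 4 had a Pearson correlation of 0.424. The correlation was 0.169 between colonies 1 and 3 and -0.04 between colonies 3 and 4. These are descriptions across transcripts, which are not independent, and the 2 libraries of a colony enter each of its pairs. Of the transcripts past 2-fold in both colonies 1 and 4, 2001 moved the same way and 315 the opposite way. For colonies 1 and 3, 1675 moved the same way and 658 the opposite way. For colonies 3 and 4, 1580 moved the same way and 1786 the opposite way. At week 2 the 3 libraries of different colonies had Spearman correlations of 0.807 to 0.882, and at week 4.5 of 0.876 to 0.892.

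**Figure D4:**
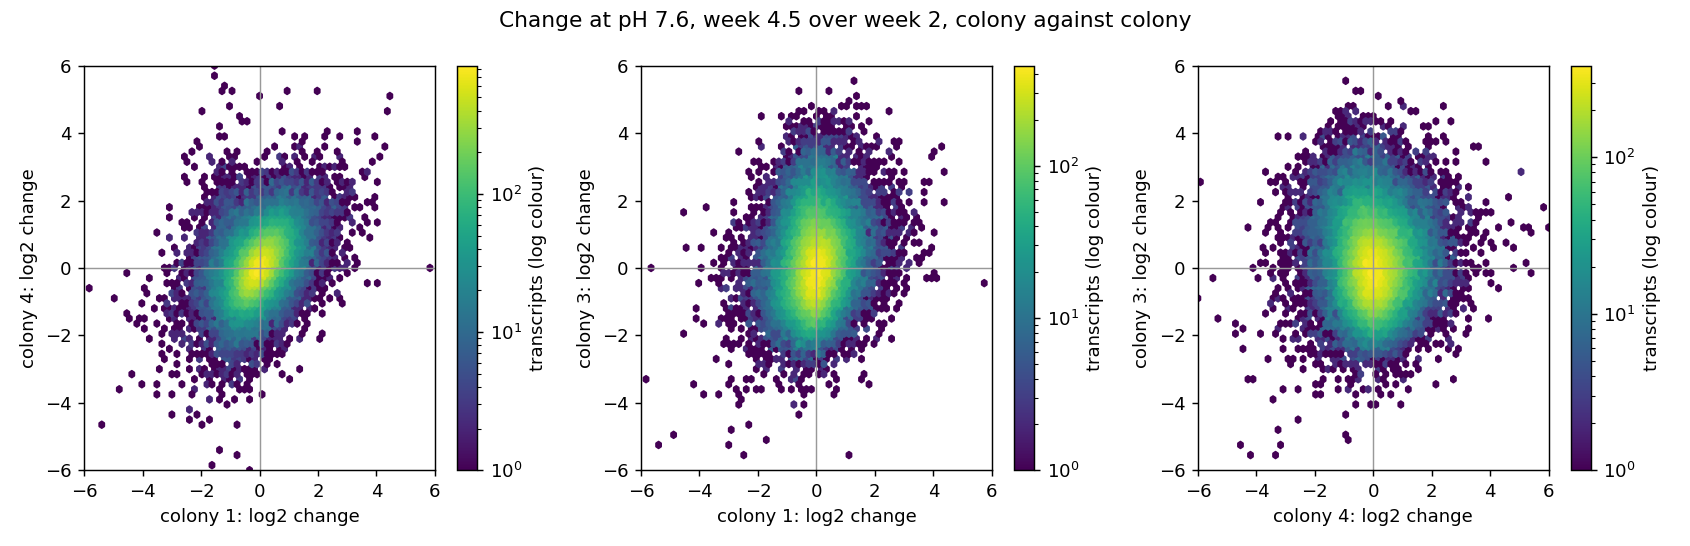
Log2 change of week 4.5 over week 2 at pH 7.6 in 1 colony against another, for colonies 1 and 4 (left), 1 and 3 (middle) and 4 and 3 (right). Colour gives the number of transcripts in each hexagon on a log scale, and the axes end at 6 on either side, so that larger changes are not shown. The left cloud leans upward (r = 0.424), while the other 2 show little or no slope (0.169 and -0.04).

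With colony 3 left out, an alternative in which the spread came from colonies 1 and 4 only, edgeR called 866 transcripts (1.72%). Of these, 519 were higher and 347 lower at week 4.5, and all 16 of the calls over 3 colonies were among them. The common dispersion was 0.0466 in this fit and 0.115 with the 3 colonies. The call rests on 2 colonies and on pairing by colony, since without the colony block the count was 0 (3606 at an unadjusted p below 0.05). DESeq2 called 2019 in the same libraries.

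Colony 3 was not used by that fit and could be read beside it. Of the 519 transcripts, 406 (78.2%) were also higher at week 4.5 in colony 3, and of the 347, 228 (65.7%) were also lower. Among all transcripts with the same sign in colonies 1 and 4, 52.6% had that sign in colony 3. The median log2 change of the 519 was 0.76 in colony 3, 1.46 in colony 1 and 1.64 in colony 4. For the 347 it was -0.46 in colony 3, -1.44 in colony 1 and -1.63 in colony 4. In colony 3, 203 of the 519 were more than 2-fold higher and 20 more than 2-fold lower, and 124 of the 347 were more than 2-fold lower and 55 more than 2-fold higher. Colony 4 at pH 7.9 had the same direction in 77.1% of the 519 and 68.6% of the 347, against 56.6% of all transcripts with the same sign in colonies 1 and 4. The calls were made on colonies 1 and 4, so their sizes are not compared with those of colony 3 by a test.

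**Figure D5:**
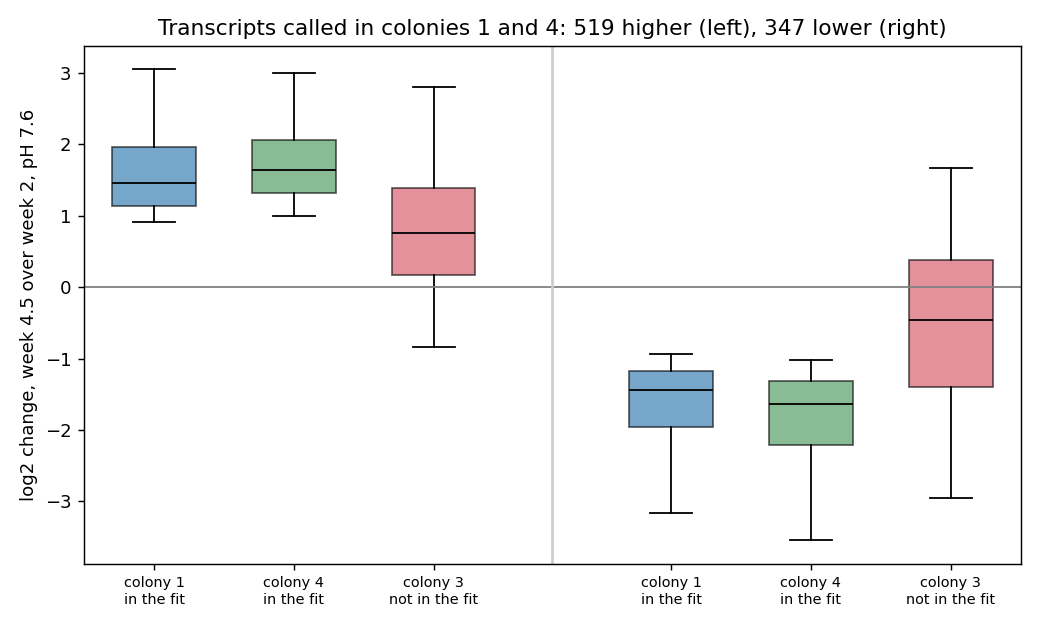
Log2 change of week 4.5 over week 2 at pH 7.6 in each colony, for the 519 transcripts called higher (left) and the 347 called lower (right) from colonies 1 and 4. Boxes span the quartiles with the median as a line, whiskers run from the 5th to the 95th percentile, and colony 3 did not enter the calls. The medians of colony 3, 0.76 and -0.46, lie nearer to 0 than those of colonies 1 and 4.

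The transcripts named by the same rule in this fit show both kinds of behaviour in colony 3. Transcript_85126 was at 4.79, 7.11 and 9.36 CPM in colonies 1, 3 and 4 at week 4.5, against 0.147, 0.518 and 0.673 CPM at week 2. The 2 weeks do not overlap and colony 3 moved with the others. From colonies 1 and 4 its log2 fold change was 4.10 ± 0.41 (SE, edgeR adjusted p = 0.0147), and over 3 colonies it was 4.08 (adjusted p = 0.175). Transcript_1294 was at 8.09, 87.5 and 78.0 CPM at week 4.5, against 1.96, 40.1 and 2.06 CPM at week 2. It rose by 3.96 ± 0.77 from colonies 1 and 4 (SE, edgeR adjusted p = 0.0466), and its week 2 level in colony 3 lay above the week 4.5 level of colony 1.

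Transcript_56426 fell in the fit of colonies 1 and 4 and kept its level in colony 3. It was at 0.0423, 10.7 and 0.081 CPM in colonies 1, 3 and 4 at week 4.5, against 6.28, 10.8 and 17.0 CPM at week 2. Colonies 1 and 4 were left with 1 and 2 counts at week 4.5 and colony 3 had 233. With 1 library per colony and week, this difference between colonies has no test. The log2 fold change from colonies 1 and 4 was -7.38 ± 0.39 (SE, edgeR adjusted p = 0.000405), and over 3 colonies the call was absent (adjusted p = 0.689). At week 8.5 the order was turned round, with 50.8, 1.69 and 82.9 CPM in colonies 1, 3 and 4. Transcript_77070, named above, was the other transcript chosen by the rule, with a log2 fold change of -7.66 (edgeR adjusted p = 0.0019).

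The most abundant transcripts followed the split between colonies. Of 96 transcripts with a mean log2 CPM of 10 or more, 95 were higher at week 4.5 in colony 1 and 92 in colony 4, but 17 in colony 3. Their median log2 change was 0.78 in colony 1, 1.07 in colony 4 and -0.66 in colony 3. They took 30.4% of all counts at week 4.5 and 21.2% at week 2 in colony 1, and 25.8% at week 4.5 and 14.7% at week 2 in colony 4. In colony 3 their share was 25.0% at week 4.5 and 30.7% at week 2. The shares at week 4.5 thus lay closer together than at week 2, where colonies 3 and 4 were the highest and the lowest. Over the 3 colonies edgeR called 0 of the 96, against 0.0318% of all transcripts, and 6 had p below 0.05 before adjustment, against 10.2% of all. At such a share of calls, 0 of 96 says nothing particular about them. The 3 week 8.5 libraries had shares of 25.3, 26.8 and 23.7% in colonies 1, 3 and 4.

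Transcript_36311, the most abundant of all and chosen for that after its values were seen, shows the split in 1 transcript. It was at 48470, 35720 and 46360 CPM in colonies 1, 3 and 4 at week 4.5, against 24850, 72940 and 15270 CPM at week 2. It was higher at week 4.5 in colonies 1 and 4 and lower in colony 3, and its fitted log2 fold change of 0.48 ± 0.68 (SE) did not pass the test (edgeR adjusted p = 0.858). The TMM factors, which scale for such shifts in the make-up of a library, were 0.920, 1.03 and 0.964 in colonies 1, 3 and 4 at week 4.5, against 1.10, 0.814 and 1.17 at week 2.

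One technical feature moved with the week. Each library was sequenced in 2 lanes, and the first lane held 49.99 to 50.16% of the counts in the week 4.5 libraries but 45.5 to 81.77% in those of week 2. Week 8.5 resembled week 4.5, at 50.17 to 50.3%. The lane balance of week 2 thus differed from that of the later weeks, and lane balance and week cannot be told apart. Counted from the first lane only, edgeR called 25 transcripts, among them all 16, and from the second lane 22, among them 14 of the 16.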

How the data were processed

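The deposited values are the authors' raw read counts per transcript, 75743 transcripts in 36 columns (18 libraries in 2 lanes). Per the labels' protocols, polyp RNA came from a Qiagen kit and the reads are single-end Illumina HiSeq reads. The submitters' processing notes name FastQC, cutadapt 1.15, Trimmomatic 0.36 and DESeq2. How reads were aligned and counted, and on which transcripts, is not given in the sources used here, so reads of near-identical transcripts may have been split or dropped.

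Lanes were summed. Transcripts with 10 or more counts in 3 or more of the 6 libraries were tested (0.41 to 0.61% of counts lay outside). The 9 libraries of a pH were fitted with edgeR 4.0.16 under R 4.3.3 (TMM scaling, quasi-likelihood F test, week and colony as terms, Benjamini-Hochberg adjustment over all transcripts tested), and week 4.5 was contrasted with week 2. A call is an adjusted p below 0.05. Week 8.5 served only to share the spread. Standard errors are the log2 fold change over the square root of F. CPM used TMM factors over 18 libraries. DESeq2 1.42.0 and limma 3.58.1 were alternatives. The procedure was also run on simulated data of a lower spread (dispersion 0.05, against 0.115 fitted at pH 7.6). No error rate for these data is taken from that run.

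Colony is the pairing because the design text samples the same colonies at each time. Deviations of the week 2 and week 4.5 libraries from their group means correlated at 0.75, 0.495 and 0.594 in colonies 1, 3 and 4. Named transcripts are the 2 largest changes in each direction with a call, a mean log2 CPM of at least 1 and the same sign in all colonies of the fit (none required for the interaction), and then the smallest unadjusted p. The members, rules and tests were chosen with earlier results of these data known. Gene lists could not be matched. Intervals cover counting error only.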

Additional observations from a re-analysis of the deposited data

Results flagged for a closer look

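Transcript_1490 rose in all 3 colonies at pH 7.6 and fell in the 3 pairs of libraries by colony label at pH 7.9. Its log2 change of week 4.5 over week 2 was 3.02, 2.54 and 2.48 in colonies 1, 3 and 4 at pH 7.6, and -0.35, -0.18 and -0.15 in the libraries labelled colonies 1, 3 and 4 at pH 7.9. The difference of the changes, pH 7.6 minus pH 7.9, was 2.89 on the log2 scale and did not pass the test over all transcripts (edgeR adjusted p = 0.15). The adjusted p was 4.44e-05 with DESeq2 (0.0198 without the 5 libraries at pH 7.9 that lay apart) and reached 1 in other alternatives. At pH 7.9 the changes were small beside the spread between the libraries of a week. Of the 3 pairs there, only that of colony 4 holds none of the 5 libraries that lay apart.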

How the results depend on the processing

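The number of calls at pH 7.6, 16, was 13 to 24 in 9 of 18 alternatives, but these were not always the same transcripts. Of the 16, 8 were called with 18 libraries, 7 without colony 4 and 9 without the week 2 library of colony 3 or of colony 4. The others gave 1 call without the replicate block, 620 with DESeq2, 9 with limma-voom, 36 with no filter, 5 with the legacy quasi-likelihood method, 25 from the first lane and 0 with the 6 libraries of weeks 2 and 4.5 alone (5084 at an unadjusted p below 0.05). Leaving out 1 colony gave 5 to 866. The 1 call at pH 7.9 became 0 without the replicate block, 501 with DESeq2, 0 with limma-voom, 0 without the 5 libraries that lay apart and 40 without them in DESeq2, and 0 to 1 without 1 colony. The 0 calls for the pH difference became 93 with DESeq2 and 31 with DESeq2 without the 5 libraries, and stayed 0 without 1 colony. The 866 calls of colonies 1 and 4 became 0 without the replicate block, 2019 with DESeq2 and 1421 with 4 libraries, which leave 1 residual degree of freedom. The cause was not tested. Without the replicate block the edgeR adjusted p was 0.00241 for Transcript_77070, 0.323 for Transcript_1490, 0.684 for Transcript_38717 and 0.68 for Transcript_81781. Over 18 alternatives Transcript_77070 passed in 17, Transcript_1490 in 14, Transcript_81781 in 11 and Transcript_38717 in 10, and no named transcript changed sign. Scaling by DESeq2 size factors gave 4 higher and 11 lower. The alternatives by lane, by single library, by depth and without the 5 libraries, and those for colonies 1 and 4, were chosen after seeing the data. Each week has 3 libraries at a pH, which limits the precision of every value.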

Other observations

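Transcript_62381, named by the rule at pH 7.9 without having passed the test there, had nearly the same week change at both pH. At pH 7.6 it stood at 58.8, 48.2 and 58.4 CPM in colonies 1, 3 and 4 at week 4.5, against 12.6, 17.9 and 13.2 CPM at week 2. At pH 7.9 it stood at 114.2, 44.9 and 59.5 CPM in the libraries labelled colonies 1, 3 and 4 at week 4.5, against 34.9, 10.9 and 13.3 CPM at week 2. The log2 fold change was 1.99 ± 0.37 at pH 7.6 (SE, edgeR adjusted p = 0.162) and 1.98 ± 0.19 at pH 7.9 (adjusted p = 0.141). Without the 5 libraries that lay apart, the change at pH 7.9 was 2.21 ± 0.65 (SE, edgeR adjusted p = 1). The transcript was called from colonies 1 and 4 at pH 7.6 (adjusted p = 0.0197). At week 8.5 it was below its week 4.5 level in each colony at pH 7.6 and in each pair of libraries by colony label at pH 7.9.

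Of the 96 most abundant transcripts, 68, 87 and 49 were higher at week 4.5 than at week 2 in the pH 7.9 libraries labelled colonies 1, 3 and 4. The even split in colony 4 at pH 7.9 stands beside 92 of 96 in colony 4 at pH 7.6. Each count rests on 1 library per week, and the pairs labelled colonies 1 and 3 hold libraries that lay apart. In the colony 4 libraries of week 2, the 96 took 14.7% of counts at pH 7.6 and 24.5% at pH 7.9. That pH 7.6 library also had 81.77% of its counts in the first lane. Whether pH accounts for the contrast was not tested.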
